A study of Mus musculus with 20 samples.

Results

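The genes of 10 transcription factors of subpallial neurons were followed in the amygdala of mice descended from stressed or non-stressed ancestors. They were Dlx1, Dlx2, Dlx5, Dlx6, Lhx6, Lhx8, Isl1, Foxp2, Meis2 and Six3. They were chosen by gene symbol, and each had 1 of the 29671 gene rows of the deposited count table, so that 10 of 10 were found. The samples were bilateral amygdala punches of behaviourally naive male C57B6 mice, bred in house from Taconic stock and taken at postnatal day 84. The 4 groups of 5 mice were formed by generation and lineage: F1 or F2, the first and the second generation after animals put through chronic unpredictable stress (stress), or the same generations of a lineage without it (no-stress). The labels call the mice of a group biological replicates but name no litter, sire or dam, so the p-values measure the spread between these mice only.

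The subpallium is the ventral part of the embryonic forebrain, where the ganglionic eminences produce the GABA neurons of the striatum, the central amygdala and the intercalated cell masses, the interneurons of the cortex and basolateral amygdala, and the cholinergic neurons of the basal forebrain. Dlx homeodomain proteins drive the differentiation and migration of these GABA neurons. The LIM-homeodomain proteins Lhx6, Lhx8 and Isl1 act further along separate branches: Lhx6 in interneurons of the medial eminence, Lhx8 in basal forebrain cholinergic neurons, and Isl1 in both cholinergic and striatal projection neurons. Meis2 and Six3 are homeodomain proteins of the striatal lineage, and the forkhead protein Foxp2 marks striatal projection neurons and intercalated cells of the amygdala. In bulk tissue, a lower level may mean fewer cells of a type or less RNA per cell, and these cannot be told apart.

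The totals per library lay between 13654890 and 13714805 counts, within 0.44% of each other, so counts of 1 gene can be set side by side. The depth before the libraries were brought to this common total is unknown. Markers of the amygdala were present: none of 10 central amygdala markers and none of 12 markers of pallial excitatory neurons was at 0 throughout any group. This cannot verify the site of the punch, because of 12 hypothalamic and thalamic markers only Hcrt was at 0 throughout a group. The summed CPM (the share of a library's counts, TMM-scaled) of the central amygdala list lay between 276 and 604. Markers of striatal medium spiny neurons were also present, and their summed CPM differed far more between mice, from 1410 to 13100 over 20 genes, with none at 0 throughout a group. In F1 it was 2590 to 6930 in stress and 3410 to 12300 in no-stress mice, and in F2 it was 1410 to 13100 in stress and 3650 to 12300 in no-stress mice. Among the libraries, 2 stood apart in composition. F2 stress replicate 14 had the lowest striatal score, 4.48, a score being the mean log2 CPM of a marker list. F2 no-stress replicate 20 had the lowest pallial score, 1.98. Results that rest on these libraries are given below with and without them.

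All 10 genes are protein-coding, and positions are those of GENCODE M21 on GRCm38. The Dlx genes sit in pairs of opposite orientation. Dlx1 lies on chromosome 2 from 71528113 to 71533981 on the plus strand and Dlx2 from 71543408 to 71546754 on the minus strand, 9.43 kb apart. Dlx6 lies on chromosome 6 from 6863334 to 6868568 on the plus strand and Dlx5 from 6877805 to 6882085 on the minus strand, 9.24 kb apart. Foxp2 spans 14901349 to 15441977 on the plus strand of the same chromosome. Lhx6 (36081953 to 36105408) and Meis2 (115863064 to 116065839) are on the minus strand of chromosome 2. Lhx8 is on chromosome 3 (154306294 to 154330659, minus), Isl1 on chromosome 13 (116298281 to 116309689, minus) and Six3 on chromosome 17 (85613608 to 85629302, plus).

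The genes formed sets that varied together from mouse to mouse, described further on. The RefSeq promoter table (GRCm38.p6) matched 7 of the 10 genes, leaving out Dlx5, Dlx6 and Foxp2. The 250 bases before the RefSeq start are shown for 1 gene of each of 3 sets: Dlx2 (chr2:71546755-71547004, minus strand), Lhx6 (chr2:36105409-36105658, minus strand) and Six3 (chr17:85620584-85620833, plus strand). Capitals mark a match to TGACAG, the core recognised by Meis-type homeodomains. The Six3 window also covers an exon of the opposite-strand transcript Gm28528.
Dlx2: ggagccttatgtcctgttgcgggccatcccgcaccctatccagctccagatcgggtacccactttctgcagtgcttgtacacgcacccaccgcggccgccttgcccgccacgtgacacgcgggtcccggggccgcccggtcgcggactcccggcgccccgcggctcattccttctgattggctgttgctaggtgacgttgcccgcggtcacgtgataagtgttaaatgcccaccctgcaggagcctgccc
Lhx6: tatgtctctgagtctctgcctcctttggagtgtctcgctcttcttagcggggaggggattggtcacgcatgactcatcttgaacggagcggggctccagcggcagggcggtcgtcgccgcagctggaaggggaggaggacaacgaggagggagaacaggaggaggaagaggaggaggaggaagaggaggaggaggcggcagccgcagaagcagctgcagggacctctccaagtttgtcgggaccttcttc
Six3: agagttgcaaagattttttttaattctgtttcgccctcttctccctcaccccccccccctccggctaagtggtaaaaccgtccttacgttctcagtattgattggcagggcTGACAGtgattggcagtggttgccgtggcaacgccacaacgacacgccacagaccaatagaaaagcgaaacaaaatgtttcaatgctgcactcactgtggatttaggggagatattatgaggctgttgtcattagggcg
The windows were searched on both strands for 2 motifs, neither of which contains the other: TAATTA, the core bound by Dlx and other homeodomain proteins, and TGACAG. The motif TAATTA was in none of the members' windows, and 4.84% of 32851 promoter windows of this length held it. TGACAG was found only in the window of Six3, and 15.9% of all windows held it. A match here is a run of letters, not a measured binding site.

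Levels can be compared between genes only per length. The scale used was CPM per kilobase of the longest annotated transcript, here without TMM scaling, as mean ± SD of all 20 mice. Meis2 had by far the highest level, 53.8 ± 11. A run of 4 genes followed: Dlx6 at 10.7 ± 2.74, Six3 at 10.3 ± 1.86, Lhx6 at 9.05 ± 3.1 and Foxp2 at 8.72 ± 1.82, where neighbours differed by less than their SD. Dlx5 stood at 5.56 ± 1.3, Lhx8 at 3.97 ± 2.57, Isl1 at 2.54 ± 1.15 and Dlx1 at 2.28 ± 0.881. Dlx5 and Lhx8, Lhx8 and Isl1, and Isl1 and Dlx1 each differed by less than the larger SD of the pair. Dlx2 was the lowest, at 1.39 ± 0.383. The order depends on the length taken: over the union of exons, Foxp2 stood at 3.61 and Isl1 at 1.61, below Dlx1 at 1.74.

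How far a gene varied between mice of a group did not follow its level. The within-group SD on the log2 scale was 1.029 for Lhx8, wider than for 99.1% of all tested genes, and its counts spanned 30 to 241. Isl1 followed with an SD of 0.775 (97.2%) and counts from 26 to 160. Dlx1 had an SD of 0.465, Lhx6 0.444, Dlx6 0.389, Dlx2 0.37, Foxp2 0.334, Meis2 0.328 and Dlx5 0.307. Six3 was the steadiest of the 10, at 0.27. Set against tested genes of like level, each of the 10 varied more than most. The share passed was 61.6% for Dlx2, 70.5% for Dlx5, 81.7% for Six3 and 99.1% for Lhx8.

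**Figure D1:**
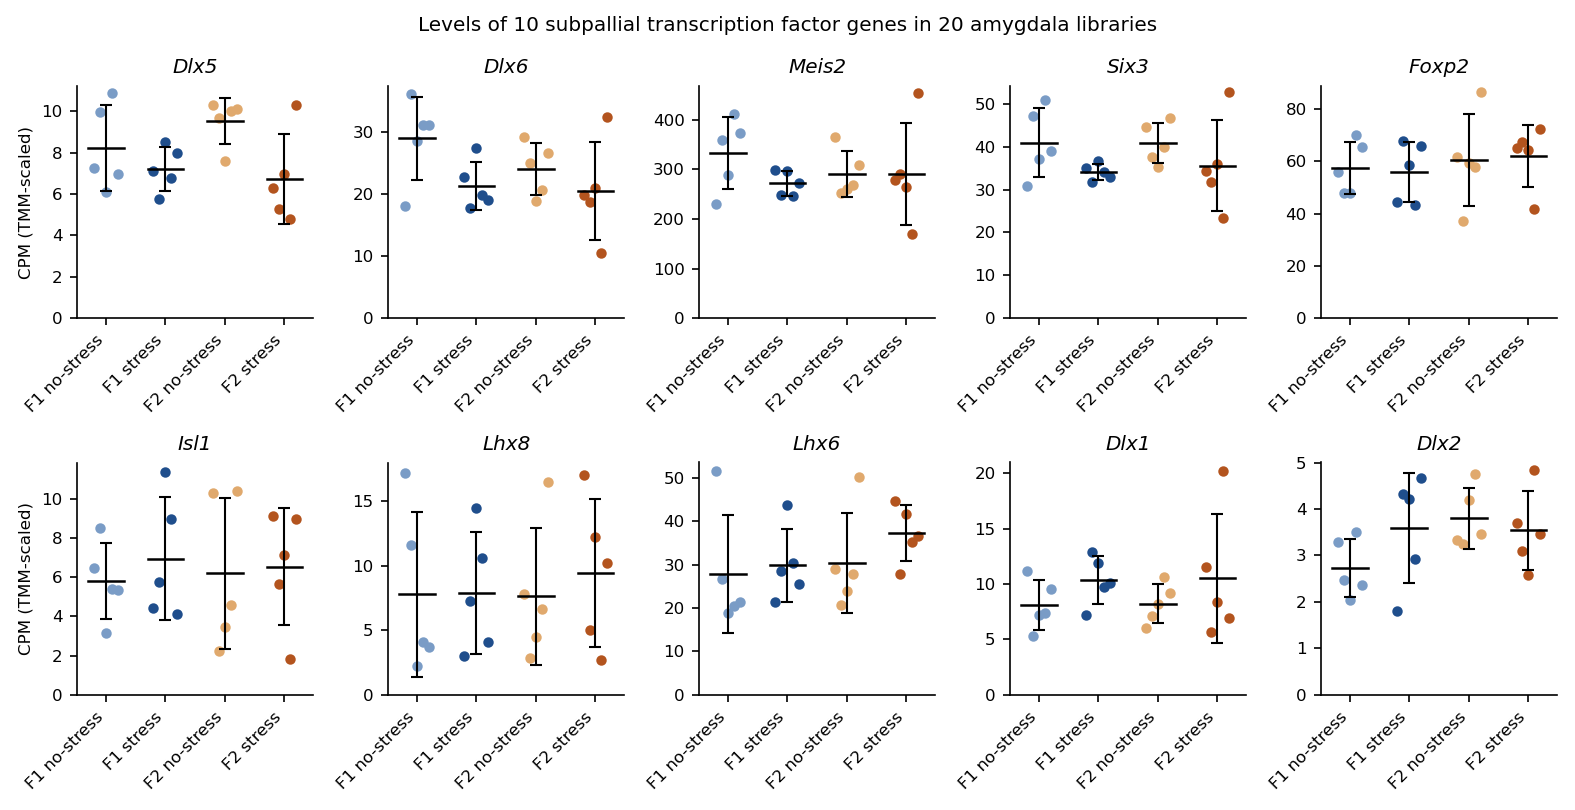
Levels of the 10 genes in CPM (vertical axes start at 0) in the 4 groups of 5 mice; each point is 1 mouse, the line is the mean and the bar the SD. The groups overlap for every gene, and the points of Lhx8 and Isl1 are spread most widely relative to their means, with Lhx8 between 2.26 and 17.2 CPM.

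The covariation of the genes between mice was measured as the correlation of log2 CPM over 20 libraries after the mean of each group was subtracted. The p-values are from two-sided permutation tests with 100000 permutations, adjusted by Benjamini-Hochberg over the 45 pairs, and 1e-05 is the smallest p they can give. The centred values were permuted over all 20 libraries, not within groups, both here and for the scores below. This makes no allowance for the group means removed or for unequal spread between groups. The p-values may therefore be too small, and relations just under 0.05 are uncertain. Of the 45 pairs, 15 passed an adjusted p of 0.05 by both Pearson's r and Spearman's rho. The share of pairs of other genes that would pass was not tested. The count therefore cannot show whether covariation of this extent is particular to these genes. The sets described next were drawn up after the correlations were seen. All points of a pair share their libraries and hence any difference in what the punch held.

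The first set was Dlx5, Dlx6, Meis2 and Six3. Meis2 and Six3 had the closest relation (r = 0.92, rho = 0.81, permutation p = 1e-05 and 7e-05, adjusted p = 7.5e-05 and 0.000525). Meis2 counts in replicates 1 to 5, the F1 stress mice, were 3951, 3499, 4146, 3437 and 3734. In the F1 no-stress mice, replicates 6 to 10, they were 3235, 4925, 3825, 5522 and 4899. The F1 stress mice lay close together, while the no-stress mice lay both below and above them. In the F2 stress mice, replicates 11 to 15, Meis2 counts were 3899, 3844, 3705, 2420 and 6019. In the F2 no-stress mice, replicates 16 to 20, they were 4824, 3423, 3605, 3734 and 4272. Both the lowest and the highest count of the study were in F2 stress mice, replicates 14 and 15.

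Six3 had its extremes in the same mice. Its counts were 464, 447, 514, 478 and 452 in F1 stress and 433, 647, 492, 683 and 510 in F1 no-stress mice. They were 483, 422, 501, 331 and 699 in F2 stress and 588, 509, 487, 554 and 647 in F2 no-stress mice. The ratio of Meis2 to Six3 counts stayed between 6.6 and 9.61. Dlx6 counts ran from 149, again in F2 stress replicate 14, to 497 in F1 no-stress replicate 7. Dlx6 followed Meis2 (r = 0.91, rho = 0.82) and Six3 (r = 0.91, rho = 0.83), each with a permutation p of 1e-05 for r and an adjusted p of 7.5e-05.

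Dlx5 was tied most closely to Six3 (r = 0.86, rho = 0.87; permutation p = 1e-05, adjusted p = 7.5e-05). With Dlx6, its chromosomal neighbour, r was 0.73 and rho 0.73 (permutation p = 0.00028, adjusted p = 0.00157). The Dlx6 to Dlx5 ratio of counts varied from 2.07 to 4.68 between mice. Over the 6 pairs of this set, r lay between 0.50 and 0.88 within F1 and between 0.82 and 0.96 within F2. Without the 2 mice farthest from the median it was 0.52 to 0.84. Without replicates 14 and 20 it was 0.67 to 0.89.

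The second set was Lhx6, Lhx8 and Isl1. Lhx8 counts were 40, 102, 203, 149 and 56 in F1 stress and 241, 159, 30, 55 and 48 in F1 no-stress mice. They were 239, 66, 170, 38 and 135 in F2 stress and 103, 38, 62, 92 and 229 in F2 no-stress mice. Every group held mice with few and mice with many Lhx8 counts. Isl1, in the same order, had 59, 81, 160, 126 and 57, then 91, 117, 42, 73 and 70 in F1. In F2 it had 128, 75, 100, 26 and 119, then 136, 30, 48, 64 and 144. The 5 mice with the most Lhx8 counts all had Isl1 counts above the median of 78.

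Lhx8 was correlated with Isl1 (r = 0.86, rho = 0.85) and with Lhx6 (r = 0.86, rho = 0.91), each with a permutation p of 1e-05 for r and for rho (adjusted p = 7.5e-05 and 0.000225). Lhx6 and Isl1 were less close (r = 0.60, rho = 0.76, permutation p = 0.00464 and 0.00013, adjusted p = 0.0161 and 0.000836). Lhx6 counts ran from 251 to 724. In 2 groups, 1 mouse lay far above the other four: 724 in F1 no-stress replicate 6, with the next at 366, and 699 in F2 no-stress replicate 20, with the next at 387. The 3 relations had r of 0.66 to 0.90 within F1 and 0.63 to 0.91 within F2, 0.65 to 0.89 without the 2 farthest mice, and 0.63 to 0.92 without replicates 14 and 20.

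The third set was the neighbours Dlx1 and Dlx2. Dlx1 counts were 96, 182, 167, 136 and 139 in F1 stress and 157, 73, 95, 99 and 125 in F1 no-stress mice. They were 162, 75, 117, 288 and 92 in F2 stress and 80, 96, 113, 147 and 128 in F2 no-stress mice. The single highest value belonged to F2 stress replicate 14, the mouse with the lowest Meis2, Six3, Dlx5 and Dlx6. Dlx2 counts were low, 24 to 69, and its highest value was in the same mouse. Dlx1 and Dlx2 had r = 0.62 and rho = 0.59 (permutation p = 0.00373 and 0.00754, adjusted p = 0.014 and 0.0283), with r of 0.58 without the 2 farthest mice and 0.57 without replicates 14 and 20.

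Dlx1 ran opposite to 3 genes of the first set by Pearson's r. Its r was -0.68 with Dlx6 (rho = -0.54, permutation p = 0.00115 and 0.0154, adjusted p = 0.00575 and 0.0461). With Meis2 it was -0.65 (rho = -0.49, permutation p = 0.00226 and 0.0307, adjusted p = 0.0102 and 0.0813), and with Six3 -0.59 (rho = -0.43, permutation p = 0.00651 and 0.0559, adjusted p = 0.0195 and 0.132). Among these 3, rho passed the threshold only against Dlx6. Without replicates 14 and 20 the 3 values of r were -0.50, -0.45 and -0.41. With Dlx5, the other gene of that set, r was -0.40 (rho = -0.39, permutation p = 0.0795 and 0.0905, adjusted p = 0.156 and 0.185), which did not pass, and -0.23 without the same mice. Dlx6 to Dlx1 ratios of counts ranged from 0.517 to 6.81.

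**Figure D2:**
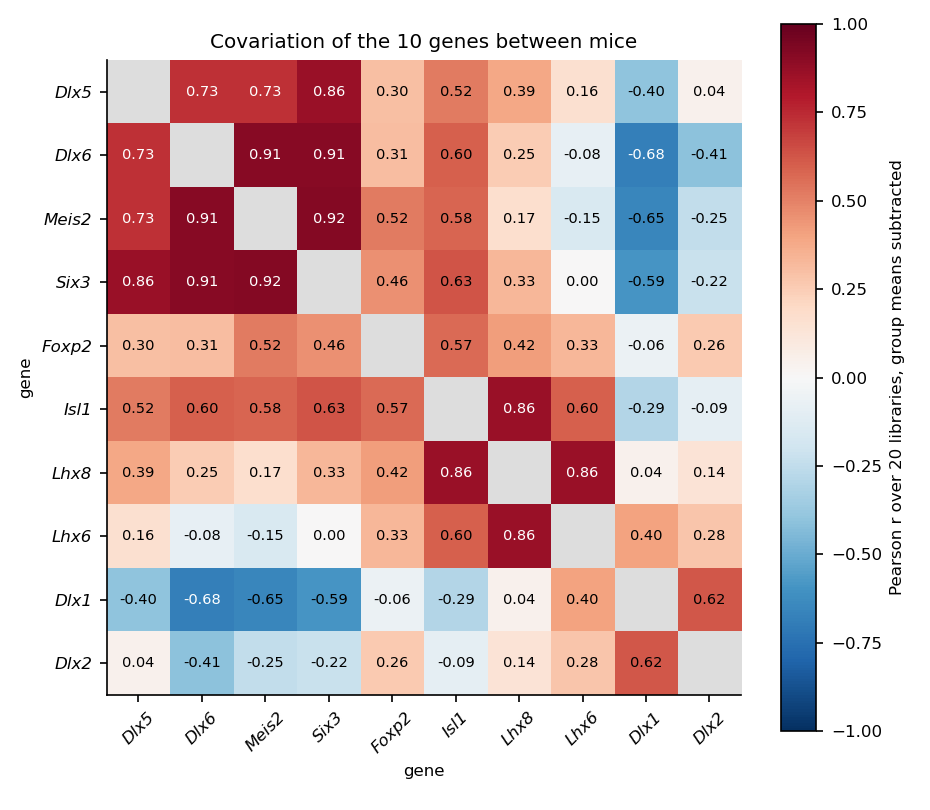
Pearson's r between the 10 genes over 20 libraries, group means subtracted; both axes list the genes, red is positive and blue negative. A block of Dlx5, Dlx6, Meis2 and Six3 (0.73 to 0.92) and a block of Isl1, Lhx8 and Lhx6 (0.60 to 0.86) stand out, and Dlx1 is negative against Dlx6, Meis2 and Six3.

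Foxp2 belonged to no set. Its counts were 588, 952, 820, 604 and 906 in F1 stress and 780, 656, 637, 942 and 856 in F1 no-stress mice. They were 911, 895, 897, 592 and 959 in F2 stress and 816, 500, 817, 802 and 1199 in F2 no-stress mice. Its r with Isl1 was 0.57 (rho = 0.40, permutation p = 0.00809 and 0.0803, adjusted p = 0.0214 and 0.181), made up of -0.10 within F1 and 0.88 within F2, a difference that was not tested. Without replicates 14 and 20 it was 0.26, so the relation rests on those mice. With Meis2 its r was 0.52 (rho = 0.55, permutation p = 0.0185 and 0.0146, adjusted p = 0.0438 and 0.0461), and 0.35 without the same mice. Isl1 in turn passed the threshold by both measures with Six3 (r = 0.63), Dlx6 (r = 0.60) and Meis2 (r = 0.58), and these stood at 0.39, 0.35 and 0.35 without replicates 14 and 20.

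The sets were next set beside scores of cell type markers that contain none of the 10 genes, again group-centred and adjusted over 110 relations. Of these relations, 26 passed an adjusted p of 0.05 by both measures. The share that other genes would reach was not tested here either. The striatal score, made of genes such as Drd1, Drd2, Adora2a and Penk, went with the first set. Its r was 0.91 with Meis2 (rho = 0.80, permutation p = 1e-05 and 0.0001, adjusted p = 0.000157 and 0.000846) and 0.89 with Dlx6 (rho = 0.75, permutation p = 2e-05 and 0.00023, adjusted p = 0.00022 and 0.00158). With Six3 it was 0.82 (rho = 0.61, permutation p = 3e-05 and 0.00526, adjusted p = 0.0003 and 0.0228). Without replicates 14 and 20 these were 0.86, 0.81 and 0.73, and without the 2 mice farthest on the score 0.81, 0.75 and 0.60.

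Dlx5 had a weaker relation to the striatal score, r = 0.62 (rho = 0.53, permutation p = 0.00381 and 0.0181, adjusted p = 0.0175 and 0.0623). This was 0.52 without replicates 14 and 20, and 0.34 without the 2 mice farthest on the score. The closest score of Dlx5 was that of microglia (r = 0.78, rho = 0.75, permutation p = 5e-05 and 0.00014, adjusted p = 0.000458 and 0.0011). This was also 0.78 without replicates 14 and 20, and 0.63 without the 2 mice farthest on the score. The microglia score also went with Six3 (r = 0.81, rho = 0.72) and Meis2 (r = 0.80, rho = 0.67, largest adjusted permutation p = 0.0082). These were 0.72 and 0.67 without replicates 14 and 20, and 0.47 and 0.45 without the 2 mice farthest on the score. Dlx1 was opposed to the striatal score, with r = -0.81 (rho = -0.71, permutation p = 2e-05 and 0.0006, adjusted p = 0.00022 and 0.0033) and -0.68 without replicates 14 and 20. Dlx2 had r = -0.46 with it (rho = -0.36, permutation p = 0.0429 and 0.115, adjusted p = 0.1 and 0.225), short of the threshold.

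The score of interneuron markers (Sst, Pvalb, Vip and others) ran against 4 of the genes by both measures. Its r was -0.72 with Dlx6 (rho = -0.84, permutation p = 0.00038 and 2e-05, adjusted p = 0.0022 and 0.000275), -0.61 with Six3 and -0.60 with Isl1 (rho = -0.67 and -0.62, largest adjusted permutation p = 0.0218). With Meis2 it was -0.54 (rho = -0.61, permutation p = 0.013 and 0.00487, adjusted p = 0.0447 and 0.0223). Without replicates 14 and 20 these were -0.80, -0.59, -0.55 and -0.55. Tac1, 1 of the markers in this score, went the other way with Meis2 (r = 0.95). Lhx6, a factor of interneurons, had r = -0.17 with this score (rho = -0.18, permutation p = 0.482 and 0.439, adjusted p = 0.564 and 0.558), and 0.01 without the same mice.

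The cholinergic score (Chat, Slc5a7, Slc18a3, Ngfr and Ecel1) went with Lhx8 (r = 0.94, rho = 0.96) and Isl1 (r = 0.89, rho = 0.84), each with a permutation p of 1e-05 and adjusted p of 0.000157 for r. With Lhx6 it had r = 0.71 (rho = 0.84, permutation p = 0.00028 and 4e-05, adjusted p = 0.00181 and 0.00044). The mice did not fill the range of this score evenly, and 9 of them had scores above 4, with F2 no-stress replicate 16 just over it at 4.05. The mice were split there after the scores were seen, with no group means subtracted. The p-values of the split make no allowance for this choice of cut, and nothing is concluded from them. Lhx8 then had r = 0.68 in the 11 mice below (rho = 0.84, permutation p = 0.015 and 0.00225, adjusted p = 0.03 over 6 relations for r). In the 9 above it had r = 0.77 (rho = 0.62, exact permutation p = 0.0109 and 0.0857, adjusted p = 0.03 for r), but 0.52 without the 2 farthest mice. Isl1 had r = 0.74 below (rho = 0.59, permutation p = 0.0113 and 0.0609, adjusted p = 0.03 for r), 0.34 without the 2 farthest mice, and -0.12 above (rho = 0.38, exact permutation p = 0.752 and 0.312). Lhx6 had r = -0.32 below (rho = 0.07, permutation p = 0.336 and 0.839) and 0.53 above (rho = 0.60, exact permutation p = 0.129 and 0.0968). Without the 2 farthest mice of each part, Lhx6 had r = 0.40 below and 0.33 above, so its negative sign below rests on those mice. The split narrows the range of the score and leaves fewer mice in each part. Its values of r also hold differences between groups, unlike the group-centred values above.

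Lhx8 and Lhx6 also went with the score of Gad1, Gad2 and Slc32a1, genes of GABA synthesis and vesicular loading (r = 0.88 and 0.77, rho = 0.89 and 0.86, permutation p = 1e-05 and 6e-05 for r, largest adjusted p = 0.000508). Isl1 went with the same score (r = 0.69, rho = 0.71, adjusted permutation p = 0.00403 and 0.0033). Lhx8 and Lhx6 went with the score of hypothalamic and thalamic markers as well (r = 0.83 and 0.86, rho = 0.82 and 0.85, largest adjusted permutation p = 0.00044). Lhx8 and Isl1 went with the oligodendrocyte score (r = 0.81 and 0.88, rho = 0.87 and 0.85, largest adjusted permutation p = 0.000275). Six3 (r = 0.62, rho = 0.60, adjusted permutation p = 0.02 and 0.0228) and Dlx5 (r = 0.56, rho = 0.56, adjusted permutation p = 0.0356 and 0.0418) also passed with the oligodendrocyte score, and without replicates 14 and 20 they stood at 0.28 and 0.45. All 3 LIM genes ran against the pallial score (r = -0.76 for Lhx6, -0.72 for Lhx8 and -0.67 for Isl1, rho = -0.79, -0.75 and -0.75, largest adjusted permutation p = 0.00585). Of the hypothalamic and thalamic list, 5 of 12 genes passed the filter on low counts, and its summed CPM lay between 29.2 and 152. The part of any of these cell types in the levels of the LIM genes was not tested. Foxp2 passed the threshold by both measures with no score, and its r with the striatal score was 0.30 (rho = 0.25, permutation p = 0.193 and 0.292, adjusted p = 0.287 and 0.412).

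**Figure D3:**
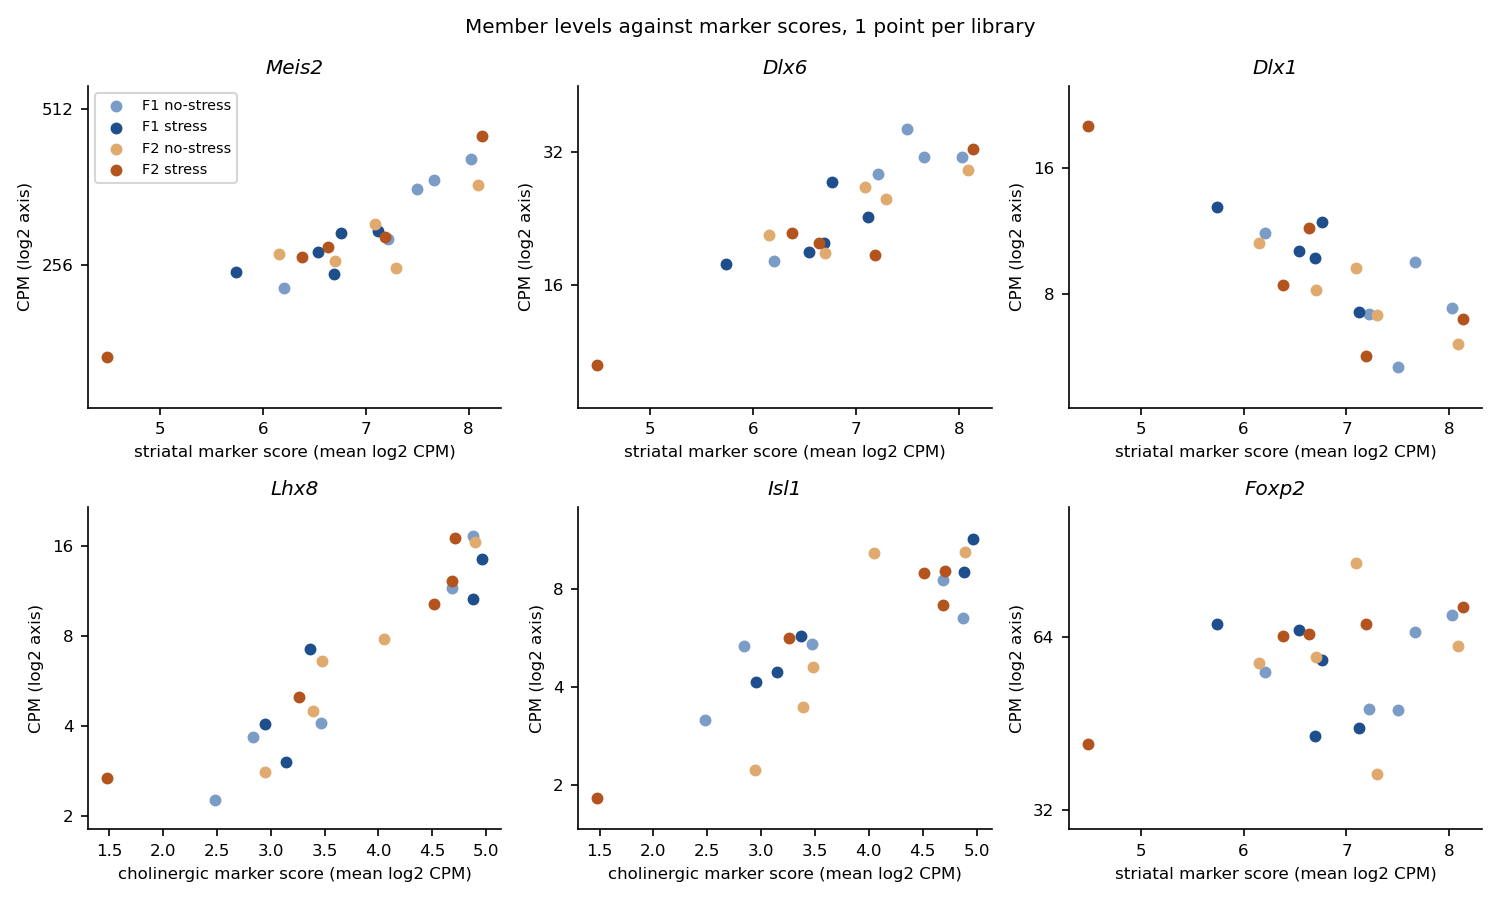
CPM of 6 genes (vertical axes, log2 scaled) against a marker score (horizontal axis, mean log2 CPM of the markers), 1 point per library coloured by group; Meis2, Dlx6, Dlx1 and Foxp2 are set against the striatal score and Lhx8 and Isl1 against the cholinergic score. Meis2 and Dlx6 climb and Dlx1 drops along the striatal score, where F2 stress replicate 14 lies far left at 4.48, and Foxp2 shows no such trend.

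For each gene the 2 named genes whose group-centred log2 CPM followed it most closely over the 20 libraries were sought among 13483 genes, as a description. Meis2 was followed by Inppl1 and Tac1 (r = 0.95 each), and Dlx6 by Penk and Sertad4 (0.93 each). Penk, the precursor of enkephalin, is 1 of the striatal markers. Tac1 was placed here in the list of interneuron markers, whose score ran against Meis2, and the cell type behind its relation to Meis2 was not tested. Six3 was followed by Tbc1d16 (0.91) and Il10ra (0.90), and Dlx5 by Fam102a (0.85) and Abi3 (0.84). Lhx8 was followed by Rassf4 and Tcf7l2 (0.95 each), Isl1 by Npc1 and Mtus1 (0.93 each) and Lhx6 by Casz1 (0.93) and Clcn5 (0.92). Tcf7l2, a transcription factor of the Wnt pathway, is 1 of the thalamic markers used above. Dlx1 was followed by Rnf25 (0.91) and Tnfrsf8 (0.89), Dlx2 by Selenon and Pdgfa (0.83 each), and Foxp2 by Dll1 (0.87) and Phlda1 (0.80).

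The lineage comparison in F1 asked whether offspring of stressed animals differed from offspring of non-stressed animals. None of the 10 genes changed by edgeR's quasi-likelihood test with Benjamini-Hochberg adjustment over 16727 genes (smallest adjusted p = 0.739). In this comparison 0% of all tested genes were called. At an unadjusted p below 0.05, 0 of the 10 passed against 6.16% of all genes, and DESeq2 also called 0. The CPM of the groups overlapped for each of the 10, while 1.24% of all genes had groups that did not overlap. The median log2 fold change of the 10 was -0.007, beside 0.004 over all genes, with 5 of 10 positive.

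The 4 genes of the first set had fitted values below 0 in F1 stress mice: Dlx6 -0.443 ± 0.222 (log2, SE of the fit; adjusted p = 0.739 by edgeR), Meis2 -0.290 ± 0.191, Six3 -0.265 ± 0.160 and Dlx5 -0.189 ± 0.190. Dlx1 and Dlx2 had values above 0, 0.355 ± 0.281 and 0.392 ± 0.233. The striatal score was 6.57 ± 0.51 (SD, n = 5) in F1 stress and 7.32 ± 0.69 in F1 no-stress mice. Of its 20 genes, 19 had values below 0, with a median of -0.840 and 0 called. With this score in the fit, Dlx6 stood at -0.127 ± 0.123, Meis2 at -0.008 ± 0.095, Six3 at -0.058 ± 0.107 and Dlx5 at -0.013 ± 0.165. Dlx1 stood at 0.030 ± 0.175 and Dlx2 at 0.237 ± 0.225 in the same fit. The part of the striatal score in these lineage values was not tested.

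Lhx8 and Isl1 were measured less precisely. In F1 the value of Lhx8 was 0.022 ± 0.595, with a 95% interval from -1.225 to 1.27 that covers a doubling in either direction. Isl1 stood at 0.264 ± 0.433, and at 0.011 without F1 stress replicate 3, the mouse with its highest count. Lhx6 stood at 0.100 ± 0.273 and Foxp2 at -0.037 ± 0.192. Without F1 no-stress replicate 6, the mouse with 724 counts of Lhx6, Lhx6 moved to 0.448 and Lhx8 to 0.546, with no call.

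In F2, where 7.92% of all genes were called (2.64% higher and 5.28% lower), none of the 10 changed by the same test, and DESeq2 called 0 as well. At an unadjusted p below 0.05, 1 of the 10 passed against 25.6% of all genes. The groups overlapped in CPM for each of the 10, against 4.61% of all genes with no overlap. The median log2 fold change of the 10 was 0.021, beside 0.001 over all genes, with 6 of 10 positive.

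The gene with the smallest p was Dlx5. Its counts were 88, 70, 97, 68 and 136 in F2 stress and 136, 131, 105, 139 and 140 in F2 no-stress mice. Of the 5 stress mice, 4 lay below all the no-stress mice, and replicate 15 lay among them. The mean was 6.71 ± 2.16 CPM (SD, n = 5) in stress and 9.53 ± 1.10 CPM in no-stress mice, a log2 fold change of -0.508 ± 0.190 (adjusted p = 0.0977 by edgeR). Without replicate 15 it was -0.711 (adjusted p = 0.0118 by edgeR), the only call of any of the 10 genes under the 27 other settings tried. Without F2 stress replicate 14, the mouse with the lowest Dlx5 count, it was -0.407. With an offset for GC content and transcript length it was -0.373 (adjusted p = 0.320), and with the striatal score in the fit -0.425 ± 0.158 (adjusted p = 0.0831). Its neighbour Dlx6 stood at -0.234 ± 0.223, at -0.461 without replicate 15 and at -0.067 without replicate 14.

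Dlx1 had a fitted value of 0.360 ± 0.280 in F2, close to that of 0.355 in F1, but here it rested on 1 mouse: without F2 stress replicate 14 it was -0.016. Lhx6 and Lhx8 stood at 0.294 ± 0.271 and 0.299 ± 0.592, Six3 at -0.195 ± 0.159, Dlx2 at -0.101 ± 0.227 and Isl1 at 0.080 ± 0.433. Without F2 no-stress replicate 20, Lhx6 moved to 0.552 and Lhx8 to 0.793, with no call. Without F2 stress replicate 11, Lhx8 stood at -0.028. Foxp2 (0.040 ± 0.192) and Meis2 (0.001 ± 0.191) were nearest to 0. For Meis2 the 95% interval was -0.396 to 0.399. The striatal score was 6.56 ± 1.34 in F2 stress and 7.07 ± 0.72 in F2 no-stress mice, and 16 of its 20 genes had values below 0 (median -0.173, 0 called). With this score in the fit, Dlx1 stood at 0.044 ± 0.172, Dlx6 at -0.101 ± 0.119, Six3 at -0.108 ± 0.102 and Meis2 at 0.112 ± 0.091. The part of the score was not tested here either.

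**Figure D4:**
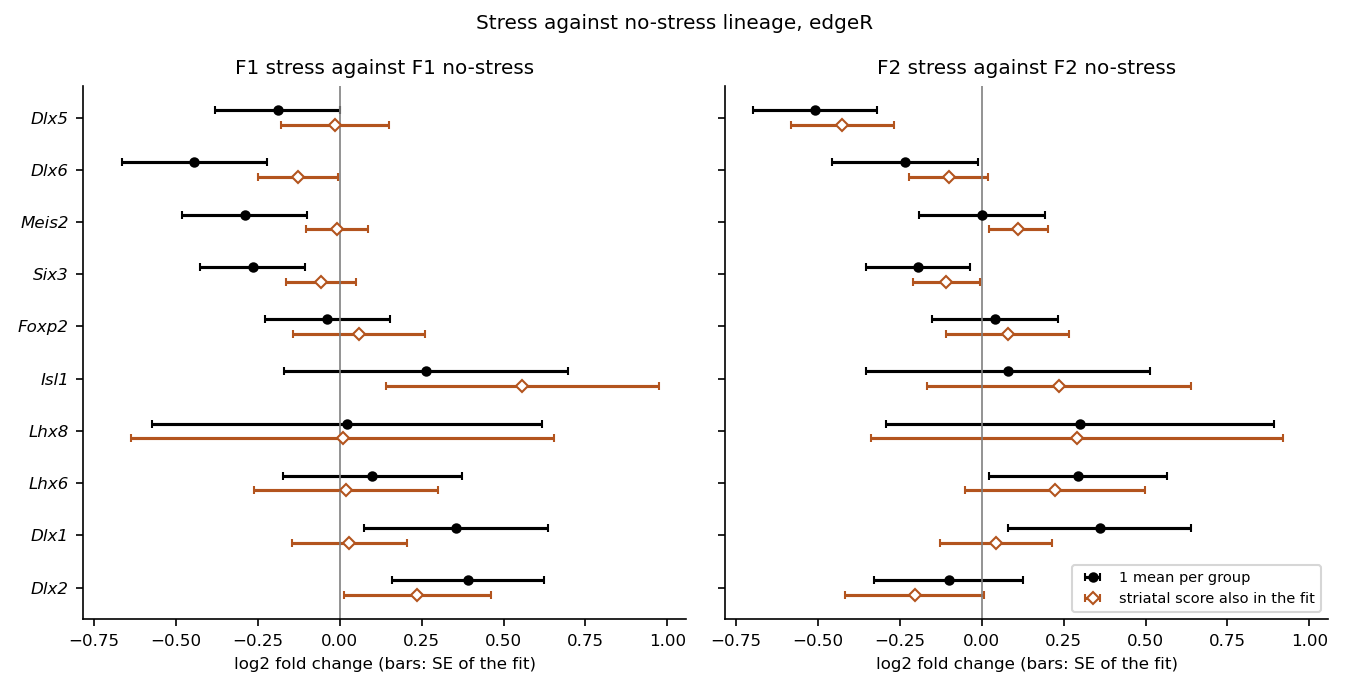
Log2 fold changes of the 10 genes in stress against no-stress mice of F1 (left) and F2 (right), with the SE of the edgeR fit as bars; filled circles are from the fit with 1 mean per group and open diamonds from the fit that also holds the striatal score. In F1 the values of Dlx6 (-0.443) and Meis2 (-0.290) move to -0.127 and -0.008 with the score, and in F2 Dlx5 remains lowest in both fits (-0.508 and -0.425).

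The difference between the lineage effects of F2 and F1 was tested as an interaction. It called 2.52% of all genes (0.837% above and 1.68% below 0) and 0 of the 10 (smallest adjusted p = 0.406, Dlx2, with a difference of -0.494 ± 0.325). At an unadjusted p below 0.05, 0 of the 10 passed against 21.2% of all genes, and DESeq2 called 0. Dlx2 had counts of 24, 61, 59, 41 and 64 in F1 stress and 46, 34, 27, 47 and 31 in F1 no-stress mice. In F2 they were 52, 41, 36, 69 and 46 in stress and 44, 44, 58, 66 and 48 in no-stress mice. The F1 no-stress mice were thus the lowest group for Dlx2, at 2.73 ± 0.628 CPM, while the other three had means of 3.54 to 3.80 CPM.

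The generations were compared within each lineage, and these comparisons share their samples with those above. In F2 against F1 no-stress mice, where 2% of all genes were called (1.47% higher and 0.532% lower), 0 of the 10 were called (smallest adjusted p = 0.257 by edgeR, Dlx2 at 0.474 ± 0.232). In F2 against F1 stress mice, where 0.012% of all genes were called, 0 of the 10 were called (smallest adjusted p = 0.812, Lhx6 at 0.319 ± 0.271). In both, 0 of the 10 passed an unadjusted p of 0.05, against 20.2% and 6.99% of all genes, and DESeq2 called 0.

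Other genes of the same developmental programme were read from a list of 36 transcription factors, of which 30 passed the filter on low counts. In F1, 0 of the 30 were called, with 1 at an unadjusted p below 0.05, and 16 were positive. In F2, 2 of the 30 fell, 0 rose and 14 were positive (median -0.048, beside 0.001 over all genes), where 5.28% of all genes were called lower. Foxp4, a forkhead relative of Foxp2, fell from 30.9 ± 4.56 to 21.0 ± 3.52 CPM (log2 fold change -0.553 ± 0.145, adjusted p = 0.0252 by edgeR). Npas1, a basic helix-loop-helix factor of interneurons and pallidal neurons, fell from 3.97 ± 0.760 to 1.75 ± 0.341 CPM (-1.171 ± 0.352, adjusted p = 0.0454). With an offset for GC content and length both calls were lost: Foxp4 stood at -0.048 (adjusted p = 0.885) and Npas1 at -0.731 (adjusted p = 0.304). With only the F2 groups in the fit, the adjusted p was 0.0993 for Foxp4 and 0.0792 for Npas1. The call of Foxp4 was also lost when any 1 of 5 of the 20 libraries was left out (replicates 11, 12, 13, 16 and 17, adjusted p = 0.0537 to 0.0845 by edgeR). That of Npas1 was lost for 12 of the 20 (replicates 2, 3, 5, 7, 8, 11, 12, 13, 16, 17, 19 and 20, adjusted p = 0.0531 to 0.114 by edgeR). Bcl11b and Foxp1, factors of striatal projection neurons, stood at -0.469 ± 0.291 and -0.660 ± 0.450 in F1, and at -0.138 ± 0.290 and -0.140 ± 0.449 in F2.

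Genes for GABA synthesis and vesicular loading were not called in either generation (0 of 3 in each by edgeR and smallest adjusted p of 0.757 in F1 and 0.103 in F2). Gad1, which makes most GABA, had 701 ± 84.5 CPM in stress and 708 ± 95.3 CPM in no-stress mice of F1, and 669 ± 83.8 and 642 ± 105 CPM in those of F2. Gad2 stood at 0.206 ± 0.169 in F1 and 0.168 ± 0.169 in F2. Slc32a1, the vesicular transporter, stood at 0.065 ± 0.222 in F1 and -0.589 ± 0.223 in F2 (adjusted p = 0.103 by edgeR). Without F2 stress replicate 15 it was called, at -0.778 (adjusted p = 0.024 by edgeR), while without F2 stress replicate 12 it stood at -0.480.

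Several members overlap transcripts of the opposite strand. The library kit keeps strand, but the strand setting of the counting is not given in the sources used here, so reads of a gene and its opposite-strand partner may not be separated. Dlx6os1 had 0.861 to 2.15 counts per count of Dlx6, and Six3os1 0.354 to 0.624 per count of Six3. Dlx6os1 stood at -0.134 ± 0.184 in F1 and -0.268 ± 0.184 in F2, the latter moving to 0.002 without F2 no-stress replicate 20. Six3os1 stood at 0.010 ± 0.173 in F1 and -0.477 ± 0.174 in F2 (adjusted p = 0.0912 by edgeR), with 14.5 ± 2.92 CPM in F2 stress and 20.2 ± 5.54 CPM in F2 no-stress mice. Dlx1as, with 7 to 27 counts per library, stood at 0.005 ± 0.327 and -0.046 ± 0.324. None of these 3 transcripts was called in F1 or F2 with all mice in the fit. Without F2 stress replicate 15, Six3os1 was called in F2, at -0.584 (adjusted p = 0.0342 by edgeR), and likewise without F2 no-stress replicate 18, at -0.571 (adjusted p = 0.0471). Without F2 no-stress replicate 20, its highest library, Six3os1 stood at -0.308 in F2, with no call.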

How the data were processed

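Poly-A RNA of 20 amygdala samples was sequenced from stranded libraries (TruSeq Stranded mRNA). Alignment was by STAR 2.5.3a on GRCm38, per the submitters' processing notes. How reads were counted, with which annotation and strand setting, and how multiply mapped reads were handled is not stated in those sources. The deposited values are whole-number counts per gene. How they came to nearly equal totals is not described in the labels.

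Genes were tested with edgeR 4.0.16 (R 4.3.3; quasi-likelihood fit, dispersion estimated robustly). All 20 libraries entered 1 fit with a mean for each group and TMM factors of 0.956 to 1.042. filterByExpr with a minimum count of 10 kept 16727 genes, all 10 members among them. A call was a Benjamini-Hochberg adjusted p under 0.05. CPM are TMM-scaled, except CPM per kilobase, which use the plain library totals. For scores and correlations, log2 CPM use a prior count of 2. Alternatives were DESeq2 1.42.0, relative log expression factors, no filter, only the compared groups, the striatal score as a covariate, an offset for GC content and length (splines with 5 degrees of freedom, 99.8% of tested genes), and each library left out. Leaving out F2 stress replicate 14 with F2 no-stress replicate 20, and the split of the cholinergic score, were added after seeing the data. Named genes were all members, all of the GABA and opposite-strand lists, up to 4 of each other list and the 2 most alike per member. Gene models were of GENCODE M21. The members and lists were chosen with earlier results of these data known. Of the marker lists, 2 genes are not reported here and enter no score.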

Additional observations from a re-analysis of the deposited data

Results flagged for a closer look

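In 4 of the 40 sets of 5 mice (10 genes in 4 groups), 1 mouse lay far from the other four, with a gap over 0.71 of the range of its group. Chance gives about 1 in 20 such sets. Dlx5 in F2 no-stress replicate 18 was the lowest of its group, at 7.6 CPM. Lhx6 was the highest of its group in F1 no-stress replicate 6, at 51.7 CPM, and in F2 no-stress replicate 20, at 50.3 CPM. Foxp2 in F2 stress replicate 14 was the lowest of its group, at 41.6 CPM. Replicates 14 and 20 are also the libraries with the lowest striatal and the lowest pallial score.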

How the results depend on the processing

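No paired analysis was possible because each mouse had its own replicate number and the groups shared none. Of 1340 values of the members under 27 other settings, 1235 kept their direction and their side of the threshold, 104 changed sign with no call in either state, the largest of these at 0.497 in size, and 1 became a call (Dlx5 in F2 without F2 stress replicate 15). The number of members called was 0 in the 7 settings that left out no single library. The comparisons are named here F1 lineage, F2 lineage, interaction, no-stress generation and stress generation, and their counts of called genes among all tested were 0, 1324, 421, 335 and 2. With DESeq2 they were 2 (F1 lineage), 2028 (F2 lineage), 1194 (interaction), 992 (no-stress generation) and 6 (stress generation). With no filter on low counts they were 737 (F2 lineage), 100 (interaction) and 61 (no-stress generation). With only the compared groups in the fit they were 0 (F2 lineage), 0 (no-stress generation) and 0 (stress generation). With the striatal score in the fit they were 908 (interaction) and 623 (no-stress generation). With the offset for GC content and length they were 8 (F2 lineage), 0 (interaction), 0 (no-stress generation) and 4 (stress generation). With F2 replicates 14 and 20 left out they were 2213 (F2 lineage), 1643 (interaction), 631 (no-stress generation) and 14 (stress generation). Leaving out 1 library, they ran from 0 to 1 (F1 lineage), 0 to 725 (no-stress generation), 0 to 10 (stress generation), 241 to 2431 (F2 lineage) and 0 to 1501 (interaction). The cause was not tested.

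Log2 fold changes that changed sign follow. With no filter on low counts they were Dlx1as 0.000 (F1 lineage). With the striatal score in the fit they were Foxp2 0.059, Npas1 -0.015, Foxp1 0.045, Gad1 0.004, Dlx1as -0.049 (F1 lineage), Foxp1 0.141, Bcl11b 0.091 (F2 lineage), Six3 -0.050 (interaction), Six3 0.075, Dlx1 -0.098 (no-stress generation) and Dlx1 -0.084 (stress generation). With the offset for GC content and length they were Six3os1 -0.048 (F1 lineage), Dlx2 0.226, Meis2 -0.091, Foxp2 -0.046, Isl1 -0.014 (F2 lineage), Lhx6 -0.057, Dlx1 -0.136 (no-stress generation) and Dlx2 0.067 (stress generation). With F2 replicates 14 and 20 left out they were Foxp1 0.026, Dlx6os1 0.117 (F2 lineage), Dlx1 -0.328, Isl1 0.325 (interaction), Lhx6 -0.133, Foxp2 -0.090, Dlx1 -0.024, Isl1 -0.175 (no-stress generation) and Dlx6 0.106, Dlx1 -0.352, Isl1 0.150 (stress generation). Leaving out 1 library, the F1 lineage values that changed sign ran: Dlx1as -0.177 to 0.166, Foxp2 -0.115 to 0.044, Gad1 -0.067 to 0.048, Lhx6 -0.077 to 0.448, Lhx8 -0.315 to 0.546, Npas1 -0.095 to 0.599, Six3os1 -0.085 to 0.078, Slc32a1 -0.066 to 0.186. Leaving out 1 library, the F2 lineage values that changed sign ran: Bcl11b -0.361 to 0.058, Dlx1 -0.016 to 0.518, Dlx1as -0.226 to 0.231, Dlx6os1 -0.360 to 0.002, Foxp1 -0.571 to 0.190, Foxp2 -0.093 to 0.204, Isl1 -0.134 to 0.348, Lhx8 -0.028 to 0.793, Meis2 -0.215 to 0.145. Leaving out 1 library, the interaction values that changed sign ran: Dlx1 -0.371 to 0.163, Dlx6 -0.018 to 0.376, Foxp2 -0.055 to 0.241, Isl1 -0.397 to 0.084, Lhx6 -0.154 to 0.452, Lhx8 -0.246 to 0.770, Six3 -0.113 to 0.190. Leaving out 1 library, the no-stress generation values that changed sign ran: Dlx1 -0.118 to 0.165, Foxp2 -0.090 to 0.207, Isl1 -0.174 to 0.308, Lhx6 -0.133 to 0.473, Lhx8 -0.520 to 0.497, Six3 -0.094 to 0.082. Leaving out 1 library, the stress generation values that changed sign ran: Dlx1 -0.352 to 0.182, Dlx2 -0.186 to 0.090, Dlx6 -0.288 to 0.107, Isl1 -0.239 to 0.163, Lhx8 -0.076 to 0.588, Meis2 -0.117 to 0.243, Six3 -0.121 to 0.183. Counting error bears on the genes with few counts, Dlx2 with 24 to 69 per library and Isl1 with 26 to 160.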
